A study of Mus musculus with 6 samples.

Results

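The expression of 48 ribosome biogenesis factors was examined in sorted CD45- cells of RANK-/- and RANK+/+ mammary tumors. The factors were chosen by name, and their probes were found through the RefSeq accession of each probe on the array. All 48 had a probe, and all 48 were among the 22503 genes tested. A RefSeq symbol was matched for 14673 of these genes, and the rest were counted by the array's own identifier. The tumors carried the polyomavirus middle T oncogene under the mouse mammary tumor virus promoter (MMTV-PyMT), which is active in mammary epithelium. Late carcinoma cells of either genotype had been transplanted orthotopically into syngeneic C57BL/6 mice. The grown tumors were dissociated, and live cells without the leukocyte surface protein CD45 were sorted. RANK, encoded by Tnfrsf11a, is the receptor for the cytokine RANKL. Ages are not in the labels used here, and nothing in them tells if separate tumors gave the 3 RNAs of each genotype. The p values between genotypes may thus not measure spread between tumors, and those within or between pairs of RNAs measure technical spread only. Each array compared 1 RANK-/- RNA with 1 RANK+/+ RNA, labeled with the dyes Cy5 and Cy3. There were 3 such pairs, each hybridized to 2 technical arrays, A and B. The RANK-/- RNA was in Cy5 in pair 1 and in Cy3 in pairs 2 and 3, so pair 1 also differs from the other pairs in its dyes.

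Ribosomes are assembled mostly in the nucleolus. RNA polymerase I makes the precursor of the large ribosomal RNAs there, and box C/D and box H/ACA ribonucleoproteins (snoRNPs), guided by small nucleolar RNAs, modify it. The processome cuts out the RNA of the small subunit, and a separate set of factors, among them the PeBoW complex of Pes1, Bop1 and Wdr12, matures that of the large subunit. Many of these factors are well known targets of the transcription factor Myc, and their expression is known to be high in growing and dividing cells, including carcinoma cells. All values below are log2 ratios of the channel labeled RANK-/- over the channel labeled RANK+/+ unless stated, so a value below 0 means less signal in the RANK-/- channel. A pair's ratio is the mean of its arrays A and B.

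Signals and labels were examined first. All 65 probes of the 48 factors stood clear of background in either channel of every array, 6 in all, whereas 51.9% to 58.8% of all gene probes were in 1 channel of 1 array. The ratio of Tnfrsf11a itself was above 0 in every pair (2.03, 1.15 and 1.76 in pairs 1, 2 and 3). This is the reverse of what a loss of its RNA in RANK-/- cells would give. Which part of the gene its probe reads was not examined, and the cause was not tested. Every direction below thus rests on the labels as they stand. All 7 epithelial markers, such as Epcam and Krt8, were well above background on 6 of 6 arrays in both channels. Of the 8 leukocyte markers, Cd52, Cd3e, Lyz2, Csf1r and Itgam were so on 6 arrays in both channels. Laptm5 was so on 6 arrays in the RANK-/- channel and 4 in the RANK+/+ channel, Ptprc, which encodes CD45, on 5 and 4, and the B cell gene Cd79a on 0 arrays in either. All 6 fibroblast markers were also well above background on every array, and their ratios in pair 3 ran from 1.26 for Pdgfra to 2.92 for Dcn.

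Between genotypes, 0 of the 48 factors passed the limma threshold (Benjamini-Hochberg adjusted p under 0.05, n = 3 pairs), as did 0 of 22503 genes (0%). At an unadjusted p under 0.05 there were 2 factors, Npm1 and Pes1, and 647 genes in all, but 0 factors when the probes of a gene were averaged or its dimmest probe was used. The rank product, run on the same ratios, called 7 genes and 0 of the factors. The median of the factors' mean ratios was -0.16, against 0.00 over all genes tested. In bulk RNA, fewer cells of a type and less RNA per cell cannot be told apart. What stood out was the disagreement of the pairs: the median ratio of the 48 factors was -0.36 in pair 1, 0.17 in pair 2 and -0.41 in pair 3, while that of all genes was 0.02, -0.01 and 0.00. These signs held under each of 10 other ways of processing, except that the pair 2 median was -0.11 where arrays were centered on their median in place of intensity loess.

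**Figure D1:**
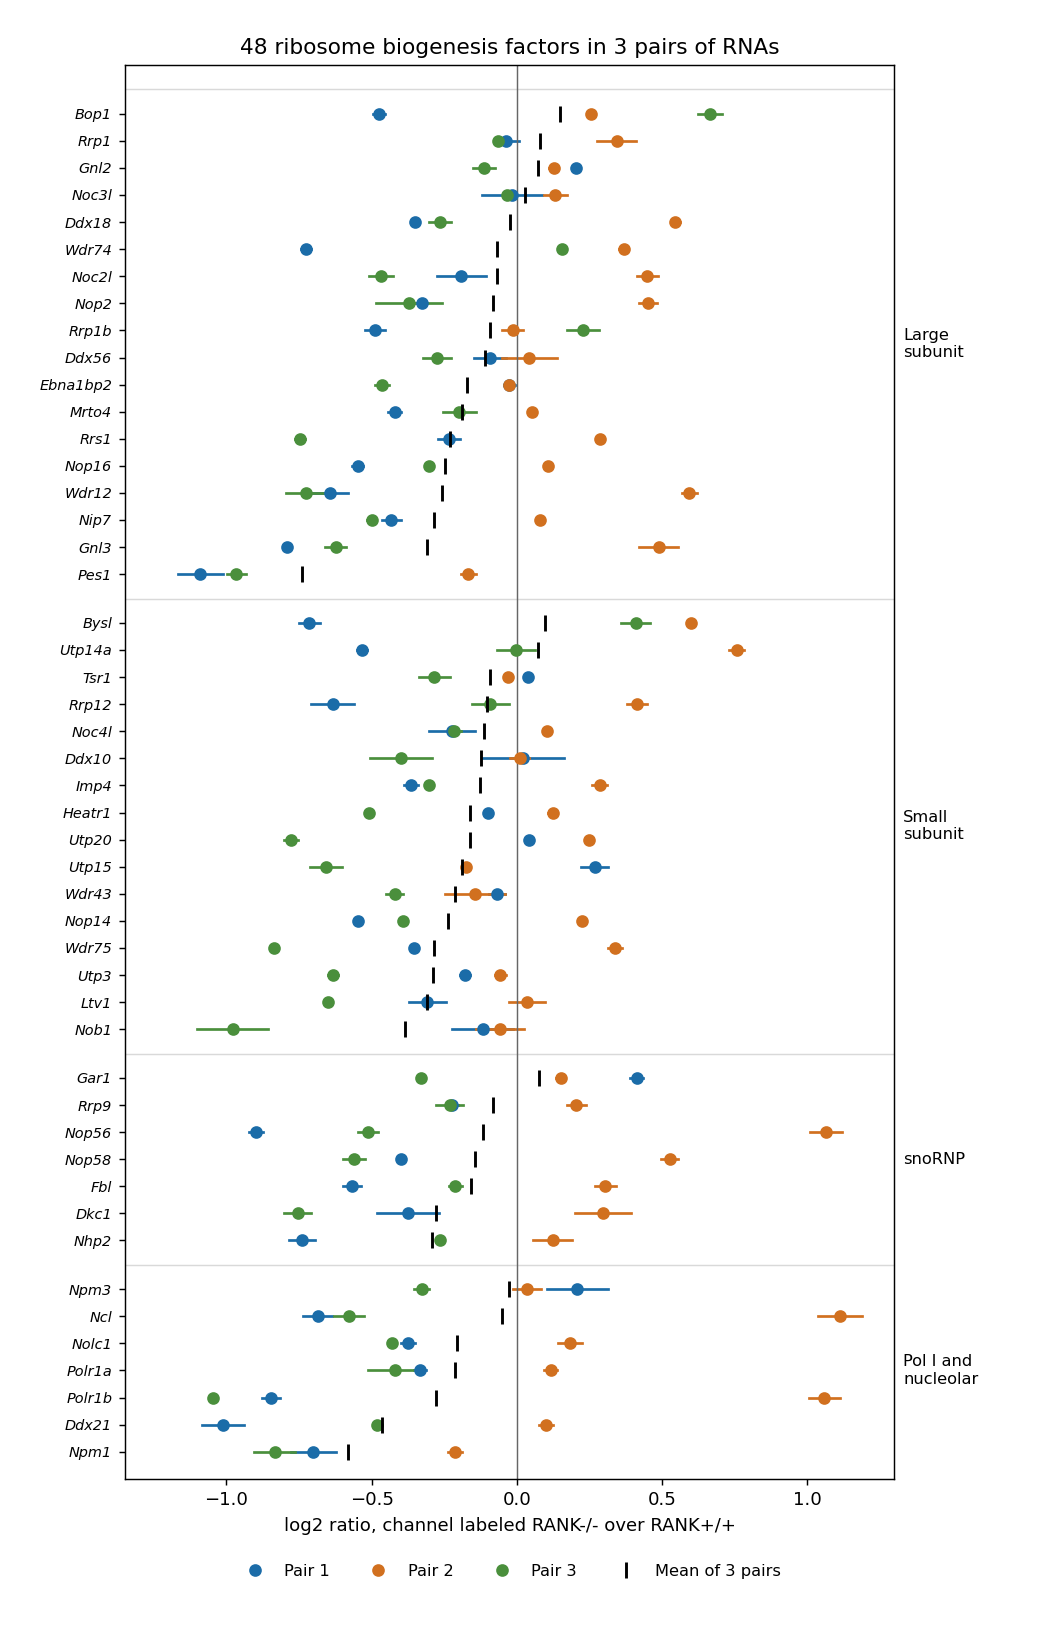
Log2 ratio of each of the 48 factors (x axis, channel labeled RANK-/- over RANK+/+) by role. Points are the 3 pairs, horizontal lines join technical arrays A and B of a pair, and black ticks are the mean of the 3 pairs. In 31 of the 48 rows the points of pairs 1 and 3 lie left of 0 and that of pair 2 right of it.

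Within pairs, the ratios were tested against 0 with the spread between technical arrays as the error. Such a test compares 2 RNAs, not the genotypes. In pair 1, 35 of the 48 factors were lower and 4 higher in the RANK-/- channel at a limma adjusted p under 0.05, where 34.7% of all genes were lower and 37.8% higher. In pair 2 the direction turned, with 4 factors lower and 29 higher, against 35.2% and 32.8% of all genes. In pair 3, 40 factors were lower and 4 higher, against 37.2% and 37.3%. With median centering, pair 1 held 22 lower and 11 higher factors, and pair 2 also held 22 lower and 11 higher. There the median of all genes was itself 0.13 in pair 1 and -0.19 in pair 2, and shares of all genes are not given. The sign pattern below, above and below 0 in pairs 1, 2 and 3 was seen in 31 factors and in 17% of all genes. All 3 of these shifts passed the threshold in 20 factors and in 8.64% of all genes. The pattern was counted after the values were seen. With median centering, 16 factors and 12% of all genes showed it.

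The 3 pairs differed from one another by more than the technical arrays in 47 of the 48 factors (limma F-test), but 88.4% of all genes did so too. The contrast of pairs 2 and 3 is free of the dye arrangement, which these pairs share. At a limma adjusted p under 0.05, 45 of the 48 factors had a lower ratio in pair 3 than in pair 2. Bop1 and Rrp1b had a higher one, and Noc3l, with a difference of -0.17, did not pass. By the same threshold, 34.8% of all genes were lower and 37.2% higher. The median difference of pair 3 from pair 2 was -0.58 over the factors and 0.02 over all genes. Over the 11 ways of processing, it ran from -0.92 to -0.53 for the factors and from -0.17 to 0.07 for all genes. Of the 48 factors, 46 or 47 had a difference below 0. The -0.92 and the 47 came from median centering, where 14377 of 22503 genes were below 0, against 10834 with intensity loess. The SD between pairs had a median of 0.42 over the factors, 7.35 times their median technical SD of 0.06, and over all genes this ratio of medians was 5.19. Arrays A and B gave the same sign for 45, 42 and 47 of the 48 factors in pairs 1, 2 and 3 and differed by at most 0.28.

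The promoters of the factors were searched for sequence motifs that they might share. RefSeq windows of 250 bases before to 50 bases after the start of transcription (build GRCm38.p6) were at hand for 42 of the 48 factors, all except Bop1, Fbl, Gnl2, Npm1, Rrp12 and Rrs1. The E-box CACGTG, the sequence that Myc with Max is known to bind, reads the same on both strands. It was in the windows of 7 of the 42 factors (16.7%) and of 8.09% of all 27025 genes in the table. The 7 were Imp4, Nop2, Pes1, Ltv1, Tsr1, Utp20 and Wdr43. CTCGCGAG was in 1 factor (Tsr1), against 1.04% of genes, and CGCATGCG in 1 (Nob1), against 2.07%. Both also read the same on both strands, and the motifs do not overlap one another in these windows. Polr1b, Ncl and Nop56, whose ratios spread most between pairs, had no CACGTG in this window.

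Of the 7, the E-box began before the start in Imp4 and Nop2 and just after it in Pes1, which by its brightest probe had the lowest mean. These are shown, on the plus strand, for Imp4 at chr1:34439689-34439828, Nop2 at chr6:125131743-125131882 and Pes1 at chr11:3963835-3963986, with the E-box in capitals. It lies at -121 to -116 in Imp4 and -60 to -55 in Nop2, and at bases 3 to 8 of the transcript in Pes1.
Imp4: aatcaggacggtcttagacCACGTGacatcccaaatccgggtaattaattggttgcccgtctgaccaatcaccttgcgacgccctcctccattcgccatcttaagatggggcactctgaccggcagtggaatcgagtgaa
Nop2: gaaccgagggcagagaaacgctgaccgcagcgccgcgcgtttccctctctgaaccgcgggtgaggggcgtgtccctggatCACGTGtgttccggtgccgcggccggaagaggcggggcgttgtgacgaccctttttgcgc
Pes1: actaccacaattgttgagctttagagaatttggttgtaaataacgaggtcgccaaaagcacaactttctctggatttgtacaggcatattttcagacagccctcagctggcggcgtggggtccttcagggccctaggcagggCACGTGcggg
In pairs 1, 2 and 3 the ratios were -0.36, 0.28 and -0.30 for Imp4, -0.33, 0.45 and -0.37 for Nop2 and -1.09, -0.17 and -0.97 for Pes1. All 3 genes were thus lower in pairs 1 and 3. In pair 2, Imp4 and Nop2 were higher and the brightest probe of Pes1 was lower, but its second probe was at 0.60. A match to these letters is a description of the window and not evidence of binding.

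RNA polymerase I and general nucleolar factors were represented by 7 genes. Their median ratio was -0.69, 0.12 and -0.48 in pairs 1, 2 and 3, and -0.16 in pair 2 with median centering. In pair 1, 6 were lower and 1 higher, in pair 2, 1 was lower and 3 higher, and in pair 3 all 7 were lower.

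Polr1b, the second largest subunit of RNA polymerase I, had ratios of -0.85, 1.06 and -1.05 in pairs 1, 2 and 3. Its signal in the RANK-/- channel was thus 55.6%, 208% and 48.4% of that in the RANK+/+ channel. The pairs lay far apart on either side of 0, and the SD of 1.16 was the largest of the 48 factors (mean -0.28, SE 0.48). The largest subunit, Polr1a, followed the same order over a smaller range, with -0.33, 0.12 and -0.42, and its pair 2 ratio did not pass the threshold. Ncl, which encodes the abundant nucleolar protein nucleolin, had -0.69, 1.11 and -0.58 (mean -0.05 ± 1.01, SD, n = 3). The RANK-/- channel held 62.1%, 216% and 67.0% of the RANK+/+ signal, so pair 2 was the one that stood apart.

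Npm1, the histone chaperone nucleophosmin, had ratios of -0.70, -0.21 and -0.83 and was thus lower in all 3 pairs. Its mean was -0.58 ± 0.33 (SD, n = 3; SE 0.19), with an unadjusted limma p of 0.0316 and an adjusted p of 1. The normalized log2 levels of the RANK-/- RNAs were 15.10, 15.38 and 14.62 and those of the RANK+/+ RNAs 15.80, 15.59 and 15.45. The genotypes thus did not overlap, as was so in this direction for 3.77% of all genes. These values are of the brightest probe of Npm1, and its other 4 probes were above 0 in pair 2 (0.34 to 0.61). Its relative Npm3 had 0.21, 0.04 and -0.33. Nolc1, a chaperone of snoRNPs, had -0.37, 0.18 and -0.43. The RNA helicase Ddx21 had -1.01, 0.10 and -0.48 (mean -0.46 ± 0.56), and the difference of its pairs 1 and 3 was larger than any between its technical arrays.

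Among the 7 snoRNP proteins, the pair medians were -0.40, 0.30 and -0.33, and -0.01 in pair 2 with median centering. All 7 were higher in pair 2 and lower in pair 3, and 6 of them were lower in pair 1. Fibrillarin (Fbl), the methyltransferase of the box C/D particle, had -0.57, 0.30 and -0.21. Its partner Nop56 had -0.90, 1.06 and -0.51, and the other partner Nop58 had -0.40, 0.53 and -0.56. For Nop56 the RANK-/- channel held 53.7%, 209% and 70.1% of the RANK+/+ signal, the second largest SD of the 48 factors (1.04). Rrp9, which binds the U3 particle, had -0.22, 0.21 and -0.23.

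In the box H/ACA particle, the pseudouridine synthase Dkc1 had -0.38, 0.30 and -0.75 (mean -0.28 ± 0.53, SD, n = 3). Nhp2 had -0.74, 0.12 and -0.26. Gar1 was the exception, at 0.41, 0.15 and -0.33, with a mean of 0.08 ± 0.38. Pair 1 was thus where Gar1 parted from the other proteins of its particle, and its mean was below 0 with median centering, Agilent's processed signals and the authors' table (-0.24, -0.07 and -0.04).

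The 16 small subunit factors had pair medians of -0.20, 0.11 and -0.41. With median centering the first was 0.03 and the second -0.16. In pair 1, 10 were lower and 1 higher, in pair 2, 2 were lower and 8 higher, and in pair 3, 13 were lower and 1 higher. The U3 processome proteins Wdr75 (-0.36, 0.34 and -0.84) and Nop14 (-0.55, 0.23 and -0.39) were, like Imp4, lower in pairs 1 and 3 and higher in pair 2. Heatr1 had -0.10, 0.12 and -0.51, and Noc4l -0.22, 0.10 and -0.22. Utp20 had 0.04, 0.25 and -0.78 and Utp15 had 0.27, -0.18 and -0.66, so these processome members parted from the list's median in pair 1, and Utp15 also in pair 2.

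Utp14a had -0.53, 0.76 and -0.0031 (mean 0.07 ± 0.65). Bysl, which acts late on the small subunit precursor, had -0.71, 0.60 and 0.41 and was the 1 small subunit factor that was higher in pair 3. Its SD of 0.71 was among the 5 largest. Rrp12 had -0.63, 0.41 and -0.09. The RNA helicase Ddx10 had 0.02, 0.01 and -0.40, and only its pair 3 ratio passed the threshold.

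The processome proteins Utp3 (-0.18, -0.06 and -0.63) and Wdr43 (-0.07, -0.14 and -0.42) and the endonuclease Nob1 (-0.12, -0.06 and -0.98), which makes the last cut of the small subunit RNA, were below 0 in all 3 pairs. Their means were -0.29 ± 0.30, -0.21 ± 0.19 and -0.38 ± 0.51 (SD, n = 3). Of their pair 2 ratios only that of Wdr43 passed the threshold, and the Nob1 signal in pair 3 was 50.8% of that in the RANK+/+ channel. Ltv1, a late cytoplasmic factor, had -0.31, 0.03 and -0.65. Tsr1, also late, had 0.04, -0.03 and -0.28, with an SD of 0.17, one of the 5 smallest.

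The 18 large subunit factors had pair medians of -0.39, 0.19 and -0.29, and -0.10 in pair 2 with median centering. In pair 1, 13 were lower and 1 higher, in pair 2, 1 was lower and 11 higher, and in pair 3, 13 were lower and 3 higher. The 3 proteins of the PeBoW complex did not move as one. Pes1 had -1.09, -0.17 and -0.97, a mean of -0.74 ± 0.50 (SD, n = 3; SE 0.24), which was the lowest of the 48 factors (unadjusted limma p 0.0323, adjusted p 1). The mean of Pes1 was -0.39 with the mean over its probes and -0.04 with its dimmer probe, and with the latter Nob1 was lower (-0.38). Wdr12 had -0.64, 0.59 and -0.73, with an SD of 0.74. Bop1 had -0.48, 0.26 and 0.66, and its mean of 0.15 ± 0.58 was the highest.

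In pair 3 the RANK-/- signal was 51.2% of the RANK+/+ signal for Pes1, 60.5% for Wdr12 and 159% for Bop1. With median centering the mean of Bop1 was -0.08. Wdr74 and Rrp1b, like Bop1 and Bysl, were lower in pair 1 and higher in pair 3, with -0.73, 0.37 and 0.16 for Wdr74 and -0.49, -0.01 and 0.23 for Rrp1b. These 4 were the factors higher in pair 3.

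The GTP-binding protein Gnl3 (nucleostemin) had -0.79, 0.49 and -0.62 (mean -0.31 ± 0.70), and the related Gnl2 had 0.20, 0.13 and -0.11 (mean 0.07 ± 0.16). The methyltransferase Nop2 had -0.33, 0.45 and -0.37, Noc2l -0.19, 0.45 and -0.47, Rrs1 -0.23, 0.29 and -0.75, and the helicase Ddx18 -0.35, 0.55 and -0.26. All of these except Gnl2 were lower in pairs 1 and 3 and higher in pair 2. Nop16 (-0.55, 0.11 and -0.30) showed the same, while for Mrto4 (-0.42, 0.05 and -0.20) and Nip7 (-0.43, 0.08 and -0.50) pair 2 missed the threshold.

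The remaining large subunit factors shifted in 1 pair at most. Noc3l had -0.02, 0.13 and -0.03, with an SD of 0.09, and was the 1 factor for which a difference between pairs did not pass the F-test (limma adjusted p 0.111). The helicase Ddx56 had -0.09, 0.04 and -0.27 (SD 0.16) and was lower in pair 3, and Rrp1 had -0.04, 0.34 and -0.06 and was higher in pair 2. Ebna1bp2 had -0.03, -0.03 and -0.46 and was below 0 in all 3 pairs, with a mean of -0.17 ± 0.25. It was lower in pair 3, and its ratios in pairs 1 and 2 did not pass the threshold.

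Taking signs alone, 6 of the 48 factors were below 0 in all 3 pairs (Npm1, Pes1, Wdr43, Utp3, Nob1 and Ebna1bp2), where 9.65% of all genes were. None, 0 of 48, was above 0 in all pairs, where 9.95% of all genes were. On the level scale, the RANK-/- RNAs all lay below the RANK+/+ RNAs for 2 factors, Npm1 and Wdr43, and for 3.77% of all genes. They all lay above for 0 factors and for 3.69% of all genes. Without pair 2, the pair whose median went the other way, 37 factors were below 0 in both remaining pairs. Of all genes, 9.65% were below 0 in every pair, and another 17% were so in pairs 1 and 3 but above 0 in pair 2. Without pair 1 or pair 3, 8 and 7 factors were below 0 in both remaining pairs. Shares of all genes are not given for these last counts.

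The result for the factors that were low throughout depended on the probe. For each gene the brightest probe was used, and 13 factors had more than 1 probe, 30 probes in all. In pair 1, the probes of 3 factors fell on both sides of 0, in pair 2 those of 5, and in pair 3 those of 1. Npm1 had 5 probes, all below 0 in pairs 1 and 3. In pair 2 the brightest was at -0.21, whereas the other 4 were at 0.53, 0.34, 0.61 and 0.54. Npm1 is known to have many processed pseudogenes, and a part of cross-hybridization in these values was not tested.

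Pes1 differed likewise, since its second probe was at -0.57, 0.60 and -0.14 in pairs 1, 2 and 3 and averaged -0.04. The second probe of Wdr43 was at 0.41 in pair 2, and the second of the 3 Ebna1bp2 probes at 0.38. Utp3 and Nob1 had 1 probe each. With the mean over probes, or with the dimmest probe, 2 factors were below 0 in all 3 pairs instead of 6. Ncl was the 1 factor whose probes averaged on both sides of 0. Its dimmer probe had -0.03, 0.54 and -0.41, with a mean of 0.03, so both probes were high in pair 2. The 2 probes of Nop56 stayed close, at -0.93 against -0.90 in pair 1, 1.19 against 1.06 in pair 2 and -0.53 against -0.51 in pair 3.

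**Figure D2:**
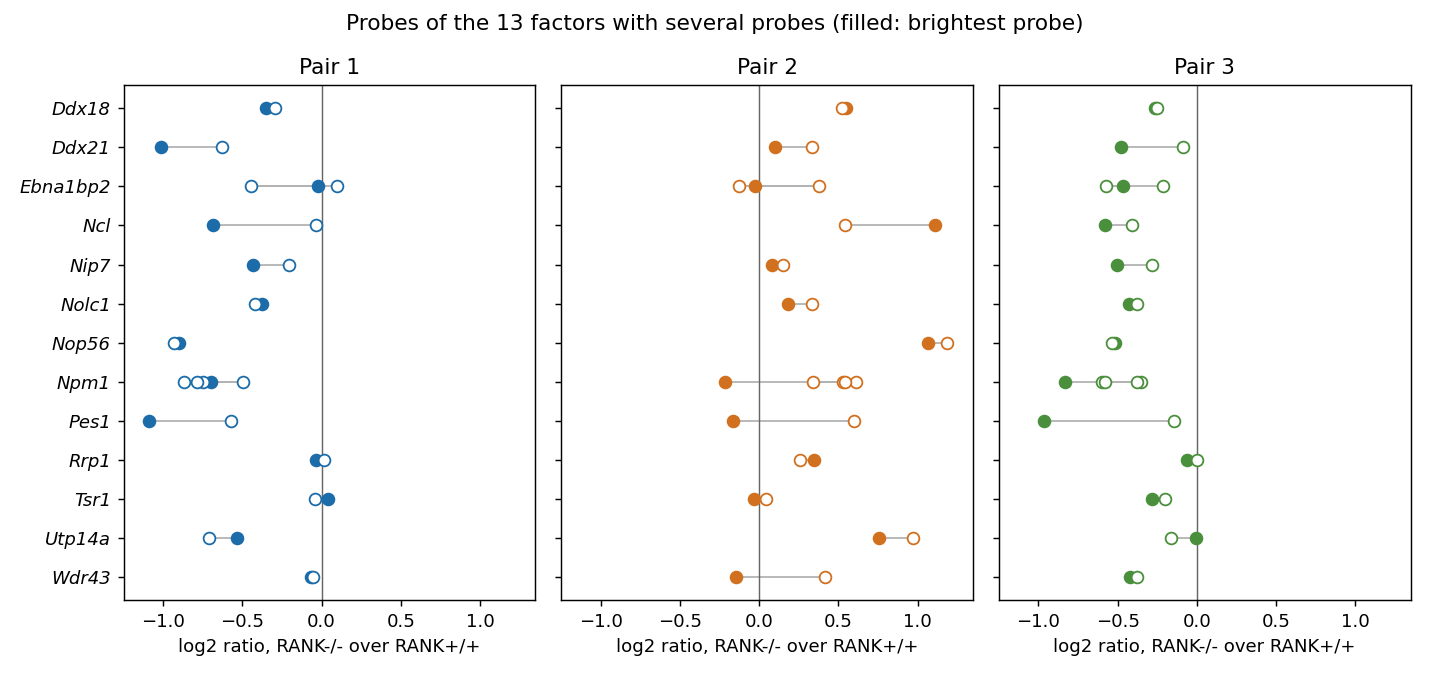
Log2 ratio (x axis, channel labeled RANK-/- over RANK+/+) of every probe of the 13 factors with several probes, 1 panel per pair. Filled points are the brightest probe, which stands for the gene, and open points the others. In pair 2 the brightest probes of Npm1, Pes1 and Wdr43 lie left of 0 (-0.21, -0.17 and -0.14) and the rest of their probes right of it (0.34 to 0.61).

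Other gene lists were described for comparison. Of 84 other biogenesis factors, 82 were tested. Their medians had the same signs but were smaller, at -0.16, 0.12 and -0.25, and became 0.07 and -0.15 in pairs 1 and 2 with median centering. Within pairs, 47 were lower and 13 higher in pair 1, 17 lower and 45 higher in pair 2, and 54 lower and 9 higher in pair 3. The lowest means belonged to Krr1 (-0.77, -0.15 and -0.71) and Rsl24d1 (-0.50, -0.02 and -0.85), and the highest to Riok3 (0.19, 0.07 and 0.86) and Eif6 (-0.16, 0.75 and 0.13). None of the 82, 0 in all, was called between genotypes.

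The 9 other genes of RNA polymerase I transcription that were tested, of 13 listed, had medians of -0.07, -0.02 and -0.29. Here the sign of the first turned with median centering (0.00) and that of the second with the mean over probes (0.03) or the dimmest probe (0.08). Taf1d (-0.53, 0.25 and -0.70) and Polr1e (-0.51, 0.24 and -0.66) had the lowest means, Rrn3 (0.54, -0.24 and 0.21) and Polr1c (-0.41, 0.41 and 0.29) the highest. The 2 with the lowest means had the sign pattern of Polr1b, and Rrn3, the factor that brings the polymerase to its promoter, had the opposite one.

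Myc itself was below 0 in every pair, with -0.31, -0.39 and -0.68 (mean -0.46 ± 0.19, SD, n = 3; limma adjusted p 1). With intensity loess, its ratio in pair 2 was thus on the other side of 0 from the median of the factors (0.17). With median centering that median was -0.11 and that of all genes -0.19, and the ratio of Myc under it is not given here. Over the 8 tested genes of the Myc network, of 11 listed, the medians were 0.04, -0.26 and -0.11. The sign in pair 1 turned with Agilent's processed signals (-0.09) and without the filter on dim probes (-0.13), and that in pair 3 without the filter (0.04) and with the dimmest probe (0.07). Apart from Myc, the lowest mean was that of Mxd3 (-0.13, 0.68 and -1.12), and the highest were those of the Myc partner Max (0.14, 0.23 and 0.62) and Mlx (-0.16, 0.26 and 0.19).

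Ribosomal protein genes, whose products the factors assemble, had other values. Of 79, 78 were tested, with medians of -0.02, -0.21 and -0.34. These depended on the processing. With median centering they were 0.24, -0.83 and -1.44, with Agilent's processed signals -0.20, -0.08 and -0.05, in the authors' table -0.26, -0.008 and -0.23, and with the dimmest probe -0.28, -0.07 and -0.20, and the first was 0.01 without background subtraction. Within pairs, 35 were lower and 24 higher in pair 1, 52 lower and 7 higher in pair 2, and 61 lower and 5 higher in pair 3. Rps15a (-0.98, -0.16 and -0.58) and Rps12 (-0.50, -0.52 and -0.54) had the lowest means, Rpl31 (-0.01, 0.42 and 0.04) and Rps3a1 (0.20, -0.01 and 0.09) the highest.

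Mitosis and replication genes showed the sign pattern of the factors at a larger size. Over 37 tested, of 40 listed, the medians were -0.77, 0.63 and -1.09, and 35 of the 37 were below, above and below 0 in pairs 1, 2 and 3. Within pairs, 35 were lower and 1 higher in pair 1, 34 higher and 0 lower in pair 2, and all 37 lower in pair 3. Kif20a (-1.21, 0.71 and -1.68) and Kif23 (-0.76, 0.66 and -1.92), both needed for cytokinesis, had the lowest means. Mcm4 (0.38, 0.13 and -0.82) and the replication clamp Pcna (-0.66, 1.03 and -0.74) had the highest. The part of this list in the shifts of the biogenesis factors was not tested.

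**Figure D3:**
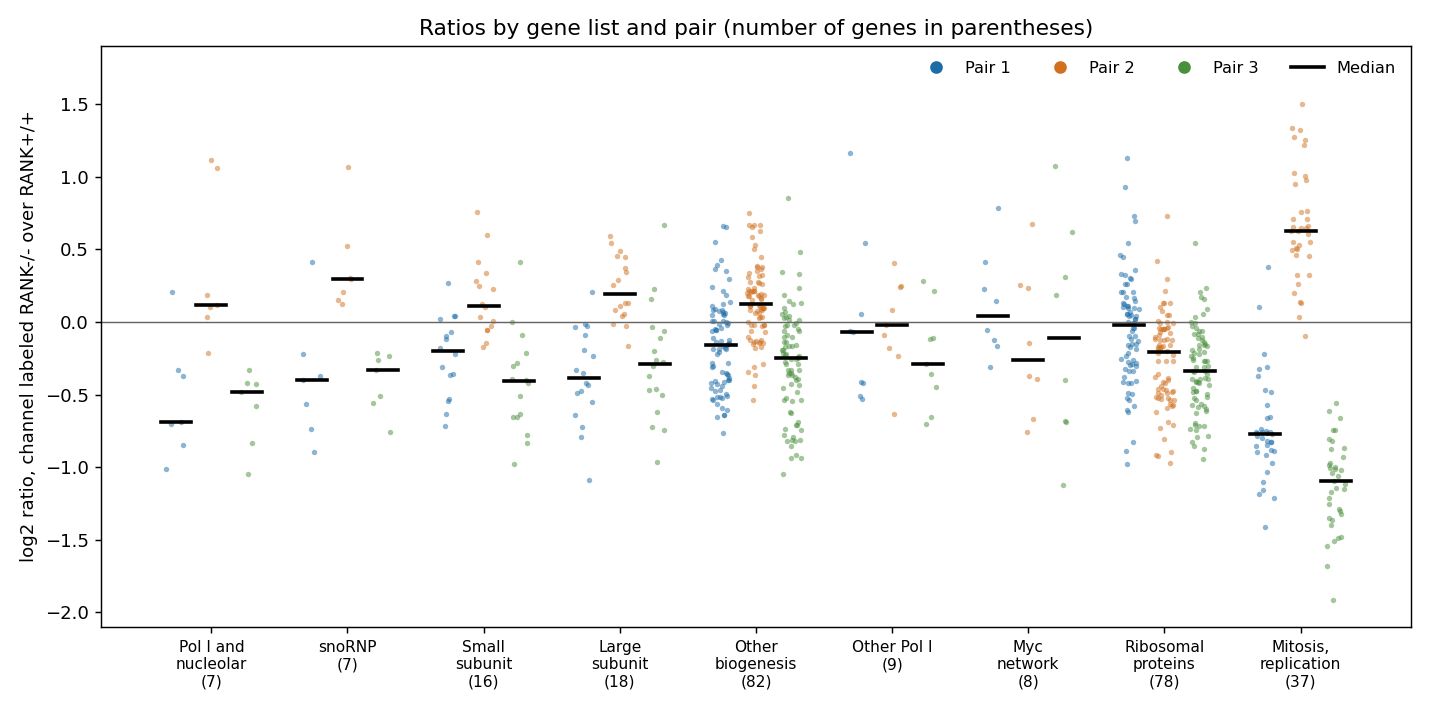
Log2 ratio (y axis, channel labeled RANK-/- over RANK+/+) of each gene in 9 lists, with the 3 pairs side by side. Points are genes, black bars are medians and the number of genes tested stands under each list. The 4 lists of factors on the left and the mitosis and replication genes on the right alternate in sign, with medians of -0.77, 0.63 and -1.09 for the latter, whereas ribosomal proteins lie lower in pairs 2 and 3.

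Markers of cell types also differed between pairs. Summed over the 6 fibroblast markers, the normalized level was 17.07 to 17.76 on the log2 scale in the RANK-/- RNAs and 15.51 to 17.09 in the RANK+/+ RNAs. Their median ratio was 0.04, 0.90 and 2.17 in pairs 1, 2 and 3, and -0.09 in pair 1 with Agilent's processed signals. For the 7 epithelial markers the summed level was 17.32 to 18.84 and 17.56 to 18.19, with median ratios of 0.27, -0.55 and 0.52. The first of these was -0.05 in the authors' table and the third -0.28 with median centering. Single epithelial markers lay far from these medians. The lowest means were those of Krt19 (-1.22, -3.95 and 0.03) and Cdh1 (0.27, -0.47 and -0.15). The highest were those of Krt8 (-0.41, -0.55 and 2.08) and Cldn7 (-0.42, 0.48 and 0.93). The 7 tested leukocyte markers, of 8, summed to 12.83 to 13.34 and 12.76 to 13.19, and the 6 endothelial markers to 11.64 to 11.87 and 11.35 to 11.79. Median ratios in pairs 1, 2 and 3 were -0.39, 0.20 and 0.14 for leukocyte and 0.01, -0.18 and 0.53 for endothelial markers. The endothelial median in pair 1 was -0.04 with Agilent's processed signals. By comparison, the 48 factors summed to 17.46 to 17.88 and 17.66 to 17.95, so that the genotypes overlapped. The part of these markers in the ratios of the factors was not tested.

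**Figure D4:**
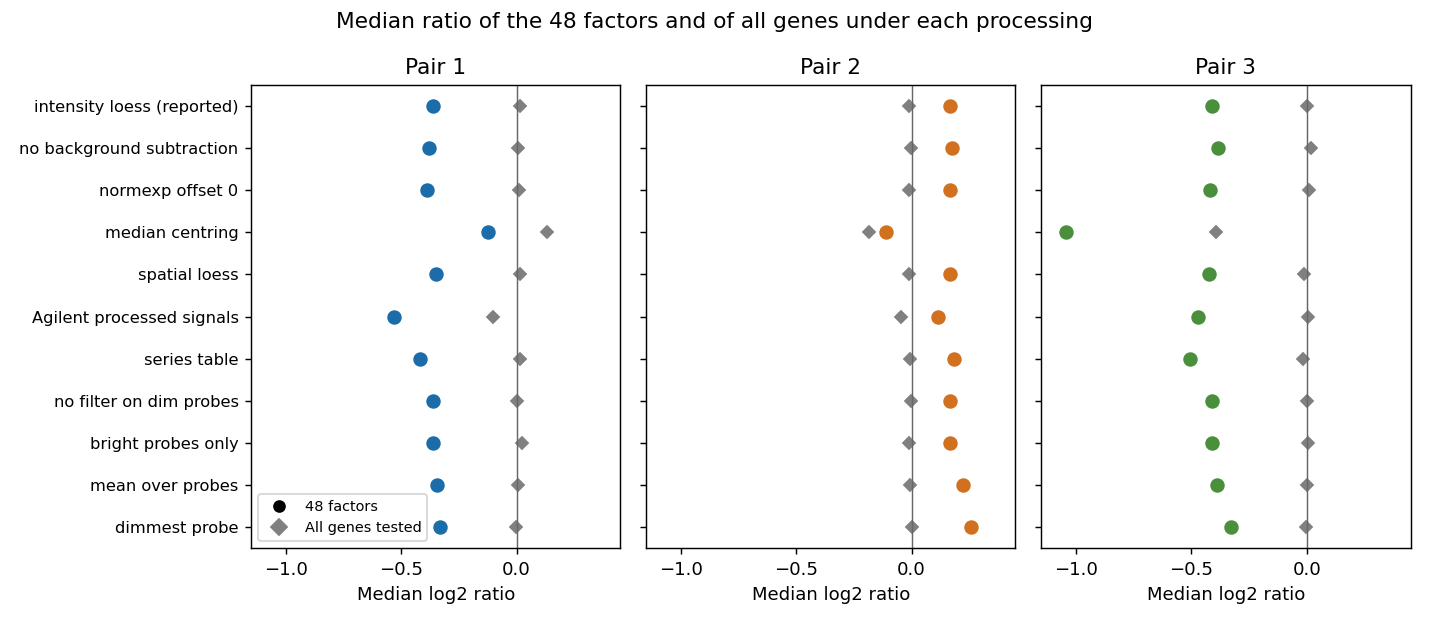
Median log2 ratio (x axis, channel labeled RANK-/- over RANK+/+) of the 48 factors (colored points) and of all genes tested (gray diamonds), 1 panel per pair and 1 row per way of processing. Median centering moves both, and in pair 2 it puts the factors at -0.11 and all genes at -0.19.

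Among the ways of processing, median centering moved the median of the factors most in every pair. It leaves in place any dye effect that depends on intensity, and it moved the median of all genes to 0.13, -0.19 and -0.39 in pairs 1, 2 and 3. Relative to those medians, the factors were at -0.26, 0.07 and -0.65. Agilent's processed signals moved the median of all genes in pair 1 to -0.10, relative to which the factors were at -0.43. Relative to all genes, the signs of the 48 factors as a group were hence negative, positive and negative in each of the 11 ways of processing. The difference between pairs 2 and 3, which share their dyes, kept its sign as well.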

How the data were processed

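RNA of sorted CD45- tumor cells was measured on 2-color SurePrint G3 Mouse arrays (6 arrays, 3 pairs of RNAs), scanned by the authors and extracted with Agilent Feature Extraction 10.7.3.1 per the labels. The deposited scanner tables give spot and background intensity in each channel without normalization, and processed intensities. Log2 ratios, normalized by the authors, are deposited in a series table, used only as an alternative. Its values had the direction used here on each array (r at least 0.977 over probes). The methods describe dye swaps, but arrays A and B of a pair have the same dyes per the labels. All arrays lay on 1 slide with 1 scan date.

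Median signals were background-corrected (normexp, offset 50), loess-normalized within arrays with control spots and flagged outlier spots at weight 0, and Aquantile-normalized between arrays (limma 3.58.1, R 4.3.3, data.table (version 1.17.8)). No spot was saturated (0). Spots of a probe were averaged, and probes were kept if Feature Extraction called them well above background in 1 genotype on arrays A and B of 2 or more pairs (30231 of 55681). RefSeq symbols (GRCm38.p6) were matched by accession for 28026 probes. Other probes kept the array's identifier as their gene name, and shares of all genes include them. The array grid is built on mm9, so no probe coordinates are given. The brightest probe stood for a gene. Genotypes were tested with limma (lmFit and eBayes, two-sided) on 3 pair ratios, and pairs in a fit of 1 mean per pair with technical arrays as error, with Benjamini-Hochberg adjustment over 22503 genes at 0.05. With 3 pairs, an exact sign-flip test cannot give a p below 0.25. The number of arrays limits the precision. The procedure was tested on simulated data.

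The factors, lists, alternatives and naming rule were chosen with earlier results of these data known. Named were the 5 highest and 5 lowest means, the 5 largest and 5 smallest SDs between pairs, and factors of 1 sign in all pairs. Factors whose probe means disagree in sign were also named, and Polr1a, Polr1b, Ncl, Npm1, Fbl, Dkc1, Bop1, Pes1 and Wdr12. For other lists, apart from the fibroblast, leukocyte and endothelial markers, the 2 highest and 2 lowest means were named. Values of the remaining factors were added after they were seen.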

Additional observations from a re-analysis of the deposited data

How the results depend on the processing

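In all 21 alternatives run, 0 of the 48 factors were called between genotypes, and the median of their means stayed below 0 in the 15 that give it. Over all genes, 298 were called with 6 arrays as separate replicates, 13 with pair as a random block and 7 by the rank product. With a dye term or no replicate block 0 genes were called, so there a count of 0 is not particular to the factors. The smallest adjusted p of a factor ranged from 0.0734 (6 arrays taken as separate replicates) to 1. Taking channels as 3 RANK-/- and 3 RANK+/+ samples, with no replicate block for the pairing of RNAs on an array, also called 0 factors. In that check, the deviations of paired RNAs correlated at -0.03, -0.22 and -0.04 in pairs 1, 2 and 3. The pairing used here is that of RNAs hybridized together. The pair 1 median of -0.36 became -0.38 without background subtraction, -0.39 with offset 0, -0.35 with spatial loess, -0.42 in the authors' table, -0.53 with Agilent's processed signals, -0.34 with the mean over probes, -0.33 with the dimmest probe and -0.35 with array B alone. That of pair 2 (0.17) became 0.18, 0.12 and 0.18 without background subtraction, with processed signals and in the authors' table, 0.22 with the mean over probes, 0.26 with the dimmest probe and 0.18 with array B alone. That of pair 3 (-0.41) became -0.47 with processed signals, -0.50 in the authors' table and -0.33 with the dimmest probe. Median centering gave medians of -0.12, -0.11 and -1.04. It also gave 14 factors below 0 in all pairs and 16 with the alternating sign pattern, the latter against 12% of all genes. Within pairs it gave 22 lower and 11 higher in pair 1, 22 lower and 11 higher in pair 2 and 0 higher in pair 3. All genes had medians of 0.13, -0.19 and -0.39 with median centering, and their shares are not given for the other counts. The mean over probes gave 2 factors below 0 in all pairs and 1 lower in pair 2. The dimmest probe, chosen after the data were seen, gave 2 below 0 and 1 above 0 in all pairs and 2 lower in pair 2. Processed signals gave 2 higher in pair 1 and 2 lower in pair 2, and the authors' ratios gave 2 lower in pair 2. Leaving out 1 pair gave 7 to 37 factors below 0 in both others (37 without pair 2), 0 to 5 above 0, and a median of means of -0.36 to -0.03. The 37 came from leaving out the pair whose median went the other way, and shares of all genes are not given for the other counts. Of the 432 values of 24 named factors under alternatives that keep all pairs, 19 changed sign, in 8 factors. The causes were not tested. Every probe of the factors was called well above background, and a part of signal level in these changes was not tested.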
